A study of Homo sapiens with 12 samples.

Results

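The clustered replication-dependent histone genes, which encode the core histones H2A, H2B, H3 and H4 that DNA is wrapped around, were followed in MDA-MB-231, an established line from a human breast cancer of the triple-negative type. Members were all genes whose symbol begins with H1C, H2AC, H2BC, H3C or H4C followed by a number and that had an array feature naming that gene alone. 51 of the 18417 measured genes met this rule: 14 H2A, 16 H2B, 8 H3 and 13 H4 genes. 0 were H1 genes, because the linker histone genes carry hyphenated symbols such as H1-1, and these are described separately. The rule kept the brightest feature of a gene, but each member had only 1 feature, so no measured value decided which genes were members. The class as a whole was taken up because genes in it were already known to change in these arrays, so the direction of its TRAIL response is not independent evidence. 43 members lie on chromosome 6, 7 on chromosome 1 and 1 on chromosome 12.

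The line was studied in its parental form and as cells treated to resistance (TTR). TRAIL, a death ligand of the tumour necrosis factor family, was added for 2 hours (100 ng per ml), with untreated parental and untreated TTR cells as controls. The 4 groups were untreated parental, parental with TRAIL, untreated TTR and TTR with TRAIL, each with 3 one-colour arrays. The labels name no other genotype, clone or agent, and nothing in them says that replicates were separate cultures, so the p-values reflect nothing but the spread among these arrays. The array descriptions hold an unexplained tag that differs between all parental and all TTR arrays, and its meaning and the line cannot be told apart. Levels are log2 values, changes are differences of group means on the log2 scale with the limma standard error (SE), and "called" means a Benjamini-Hochberg adjusted p under 0.05 in the limma fit over all 18417 genes.

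Replication-dependent histone genes lie in clusters with many near-identical copies and are mostly transcribed in S phase, when new DNA needs new nucleosomes. Their transcripts have no introns and mostly end in a conserved stem-loop instead of a poly(A) tail, which is bound by the stem-loop binding protein SLBP and cut with the help of the U7 small nuclear RNA. Many H2A and H2B genes stand head to head and share the sequence between their starts. The priming of the labelling reaction is not stated in the sources used here, so it is not known how well RNA without a poly(A) tail was read. Near-identical copies can share probes, so a value assigned to 1 copy is uncertain. A feature's brightness also depends on its probes, so levels are compared within a gene and not between genes.

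The sequences before the transcription starts of 8 members on which the results turn are given first, because large changes with TRAIL in parental cells were read for most of them, beside H3C2 and H4C15, whose own features changed little. They are from the RefSeq promoter table (GRCh38.p14), 5′ to 3′ on the strand of the named gene and ending at the base before its start. Capitals mark matches to TATAAA or CCAAT on either strand. They also mark matches to the octamer ATTTGCAT. A CCAAT on the other strand reads ATTGG here. An octamer on the other strand reads ATGCAAAT. For H2AC17 (chr6:27893186-27893424, minus strand) and H2AC14 (chr6:27814778-27815021, minus strand) all 239 and 244 bases up to the start of the paired H2BC17 and H2BC14 are shown. For H2BC21 (chr1:149886683-149886832, minus strand), H3C3 (chr6:26045234-26045383, plus strand), H3C2 (chr6:26032100-26032249, minus strand), H4C9 (chr6:27139132-27139281, plus strand), H4C8 (chr6:26285535-26285684, minus strand) and H4C15 (chr1:149861160-149861309, minus strand) the last 150 bases are shown.
H2AC17: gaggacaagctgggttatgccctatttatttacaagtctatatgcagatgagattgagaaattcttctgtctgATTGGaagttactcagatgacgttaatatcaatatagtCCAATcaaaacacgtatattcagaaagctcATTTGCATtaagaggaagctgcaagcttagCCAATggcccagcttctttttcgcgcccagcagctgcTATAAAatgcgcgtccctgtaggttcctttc
H2AC14: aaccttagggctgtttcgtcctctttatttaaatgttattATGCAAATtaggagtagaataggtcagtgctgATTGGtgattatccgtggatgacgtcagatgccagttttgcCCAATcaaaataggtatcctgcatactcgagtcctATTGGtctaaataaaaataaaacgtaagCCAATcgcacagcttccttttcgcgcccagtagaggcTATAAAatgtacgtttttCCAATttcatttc
H2BC21: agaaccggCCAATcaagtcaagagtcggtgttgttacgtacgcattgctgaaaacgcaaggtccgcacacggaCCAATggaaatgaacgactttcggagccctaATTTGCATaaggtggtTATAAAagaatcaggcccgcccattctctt
H3C3: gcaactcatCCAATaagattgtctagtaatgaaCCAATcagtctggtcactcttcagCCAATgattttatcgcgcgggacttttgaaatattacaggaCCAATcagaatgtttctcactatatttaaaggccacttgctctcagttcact
H3C2: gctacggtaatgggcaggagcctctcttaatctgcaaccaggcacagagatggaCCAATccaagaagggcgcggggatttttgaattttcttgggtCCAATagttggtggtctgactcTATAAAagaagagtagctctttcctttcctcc
H4C9: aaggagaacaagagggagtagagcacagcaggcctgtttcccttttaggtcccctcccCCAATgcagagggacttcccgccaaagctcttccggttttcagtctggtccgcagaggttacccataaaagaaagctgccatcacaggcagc
H4C8: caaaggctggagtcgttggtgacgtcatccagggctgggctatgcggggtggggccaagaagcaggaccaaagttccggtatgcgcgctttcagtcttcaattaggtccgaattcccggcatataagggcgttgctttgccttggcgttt
H4C15: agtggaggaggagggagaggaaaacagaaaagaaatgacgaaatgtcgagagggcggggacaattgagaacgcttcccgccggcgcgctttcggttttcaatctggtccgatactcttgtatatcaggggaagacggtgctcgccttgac
The H2AC17 and H2AC14 stretches both held TATAAA at position -31 and CCAAT at position -68, counted from the base before the start as -1. The H4C8 and H4C15 stretches held none of the 3 words in these letters.

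These words were counted in the 250 bases before the start of the 46 members in the promoter table; H2AC12, H3C11, H3C12, H4C1 and H4C3 were not matched. CCAAT, the letters of the box bound by factor NF-Y, was present in 38 of 46 members and in 32% of all 35116 promoters of the table. It stood in 13 of 13 H2A, 16 of 16 H2B and 6 of 6 H3 members but in 3 of 11 H4 members. TATAAA, the letters of a TATA box, was present in 31 of 46 members and in 10.7% of all promoters. ATTTGCAT, the octamer bound by POU2F1, was present in 10 of 13 H2A and 13 of 16 H2B members, in 0 of 6 H3 and 0 of 11 H4 members, and in 1.63% of all promoters. The windows of head-to-head pairs overlap, so 1 match can count for both genes. Among the 16 matched members that rose at least 2-fold with TRAIL in parental cells, 12 held TATAAA, 14 CCAAT and 8 ATTTGCAT. Among the other 30 matched members these numbers were 19, 24 and 15. A match describes the letters only.

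Between groups the arrays as a whole also moved, which touches every change below. The array median was 4.58 to 4.61 in parental cells with TRAIL, 4.29 to 4.31 in untreated parental cells, 4.24 to 4.30 in untreated TTR cells and 4.38 to 4.40 in TTR cells with TRAIL. Centring every array on its median moved the median change of all genes with TRAIL in parental cells from 0.05 to -0.24. Counts after that centring are therefore given beside the main counts. Replicates of a group did not shift equally for these genes. The second untreated parental array was the lowest of its group for 40 of 51 members (78.4%, against 32.4% of all genes), and the first untreated TTR array was the lowest for 40 members (78.4%, against 34.3%). The mean level of 19 S-phase genes was 8.82 on that parental array and 8.83 and 8.76 on the others of its group. It was 8.77 on that TTR array and 8.79 and 8.67 on the others. Without that parental array 30 members rose with TRAIL in parental cells, and without that TTR array 9 rose in TTR cells, against 34 and 11 with all arrays. Defining markers of the line were present: the 6 mesenchymal markers VIM, ZEB1, CD44, CAV1, AXL and MSN had group means between 6.72 and 11.8. The 6 luminal breast markers lay between 2.38 and 4.999 in all groups.

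**Figure D1:**
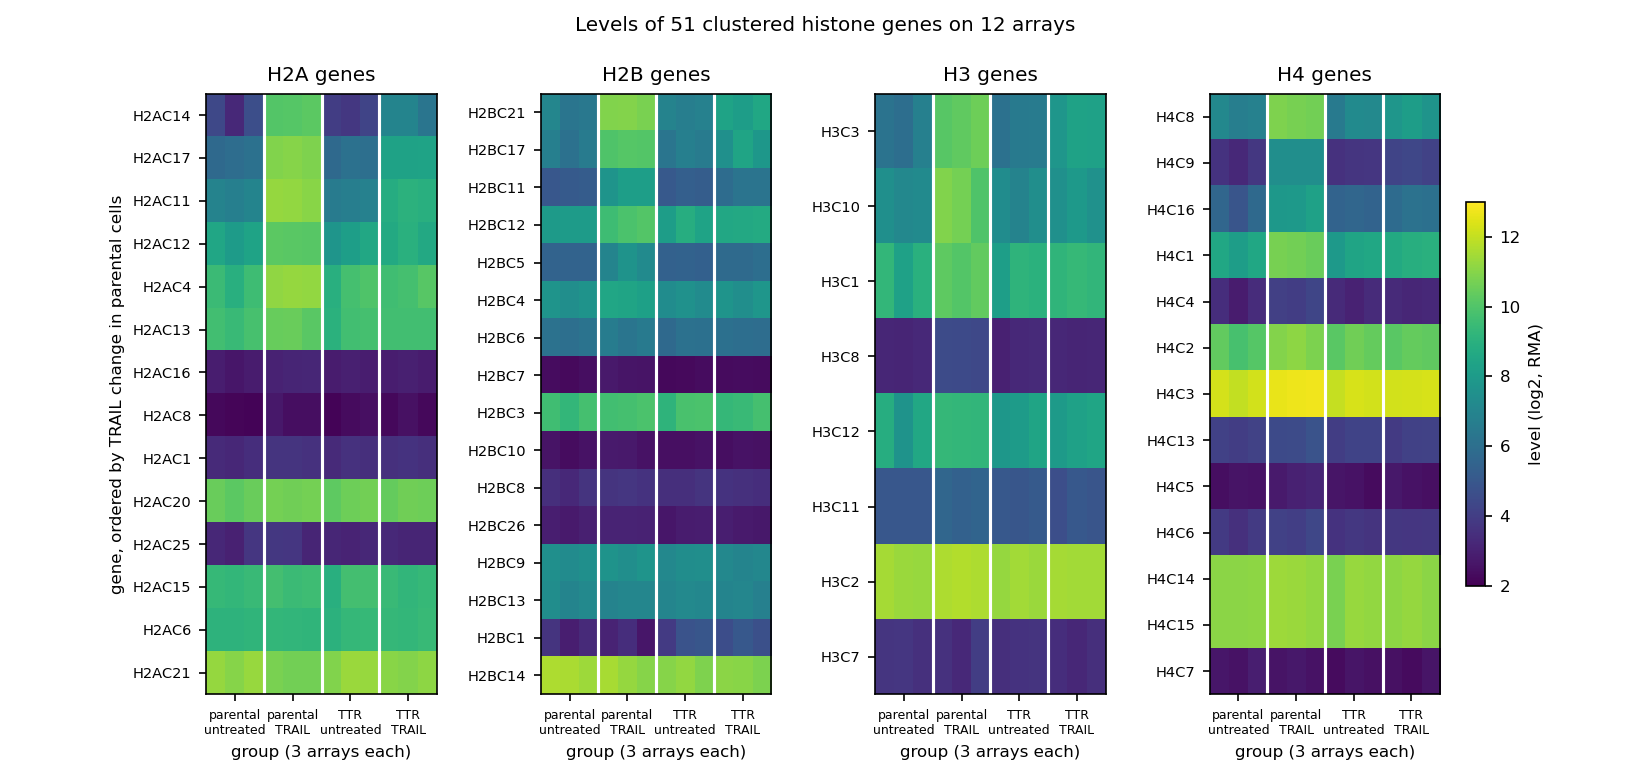
Each row is 1 of the 51 members, each column 1 of 12 arrays, and the colour gives the level (log2); within each class genes are ordered by their TRAIL change in parental cells. The parental TRAIL columns are brighter than the other 3 groups in the upper rows of every class, while lower rows such as H4C14, H3C2 and H2AC21 look alike in all columns.

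TRAIL in parental cells was followed by higher levels of most members. 34 of 51 members rose, where 28.9% of all genes did, and 1 member, H2AC21, fell, where 29.9% of all genes did. 18 members rose at least 2-fold, where 4.21% of all genes did. In 39 members the 3 TRAIL arrays lay above the 3 untreated arrays without overlap (31.2% of all genes), and in 1 they lay below (31% of all genes). The median change was 0.50 over the members and 0.05 over all genes. In bulk RNA, fewer cells of a type and less RNA per cell cannot be told apart, nor can more cells and more RNA per cell.

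After median centring 23 members rose, 17 of them at least 2-fold, and 4 fell (H2AC21, H2BC13, H2BC14 and H4C7), where 12.6% of all genes rose and 46.7% fell. After quantile normalization 31 rose and 1 fell, where 19.1% of all genes rose and 31.4% fell. All of the 18 members that rose at least 2-fold kept their call under all alternatives in which they were fitted, left-out arrays included. Of the 34 that rose, 23 did so. The others, H2AC1, H2AC8, H2AC16, H2BC6, H2BC7, H3C2, H3C11, H4C3, H4C5, H4C6 and H4C13, lost the call under at least one.

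All classes held members that rose at least 2-fold, and members that hardly moved. These differed in untreated parental level. From 5 to 9, 14 of 19 members rose at least 2-fold, where 6.01% of all genes at those levels did. Under 5 it was 3 of 19 members (2.76% of all genes), and over 9 it was 1 of 13 (3.02% of all genes). The part of the level in this split was not tested. 9 of 14 H2A members rose, 5 of them at least 2-fold, with a median change of 0.34 over the class. 8 of 16 H2B members rose, 5 at least 2-fold, with a median change of 0.26. 7 of 8 H3 members rose, 4 at least 2-fold, with a median change of 1.08. 10 of 13 H4 members rose, 4 at least 2-fold, with a median change of 0.54. After median centring the class medians were 0.05 for H2A, -0.04 for H2B, 0.79 for H3 and 0.25 for H4, so the sign of the H2B median turned. The median level of the H3 members was 6.80 ± 0.24 (SD, n = 3) in untreated parental cells and 9.67 ± 0.06 (SD, n = 3) with TRAIL. That of the H4 members was 5.42 ± 0.47 and 8.03 ± 0.24 (SD, n = 3 each), which on these arrays is the level of H4C16 alone. For H2A it was 7.59 ± 0.18 and 10.15 ± 0.007, and for H2B 6.27 ± 0.19 and 7.45 ± 0.12 (SD, n = 3 each). A difference between median levels is not the median change of the members, which is given above and was smaller in every class.

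Among the H2A genes, whose product pairs with H2B in the nucleosome, H2AC14 had the largest change of all members. Its level was 4.38, 3.25 and 4.64 in untreated parental cells and 10.06, 10.10 and 10.23 with TRAIL. All TRAIL arrays lay more than 5 log2 units above the untreated ones. The change was 6.04 ± 0.27 (limma adjusted p = 3.196e-11). Its untreated mean of 4.09 was below the median of all genes and was not shown to be above background, so the change may be a lower bound and no fold is given. H2AC17, in another head-to-head pair, stood at 5.77, 5.93 and 6.12 without and 10.93, 11.02 and 10.86 with TRAIL, a change of 4.996 ± 0.11 or 31.9-fold (limma adjusted p = 1.871e-14). The values within each group stood close together, and far from those of the other group. H2AC11 was 6.93, 6.74 and 6.97 without and 11.25, 11.23 and 11.04 with TRAIL, which gave a change of 4.29 ± 0.11. H2AC12 (1.89 ± 0.17) and H2AC4 (1.88 ± 0.22) completed the H2A members that rose at least 2-fold.

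The other H2A members rose by less than 2-fold, were not called or fell. The largest of these rises was that of H2AC13 (0.72 ± 0.16), whose call held under all alternatives. H2AC21, the H2A member with the highest mean level, was 11.26, 10.98 and 11.29 without and 10.80, 10.67 and 10.64 with TRAIL. The groups did not overlap, and it fell by 0.47 ± 0.12 (limma adjusted p = 0.00282), a fall of this feature that held under all alternatives. A feature shared by H2AC18, H2AC19, H2AC20 and H2AC21 went the other way, from a mean of 10.96 to 11.42 (values only, no test). The fall is thus that of 1 feature and is uncertain for the gene. The smallest changes were those of H2AC6 (0.09 ± 0.10) and H2AC15 (0.22 ± 0.16), neither of them called. Both turned below 0 after median centring, to -0.20 and -0.07.

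Among the H2B genes, H2BC21 on chromosome 1 changed most. It was 7.05, 6.28 and 6.42 without and 10.92, 10.96 and 10.79 with TRAIL, a change of 4.31 ± 0.16 or 19.8-fold (limma adjusted p = 4.991e-12). The untreated arrays spread more widely than the TRAIL arrays, and the groups stood far apart. H2BC17 changed by 3.57 ± 0.20 and H2BC11 by 2.89 ± 0.14. Both belong to head-to-head pairs whose H2A gene also rose. H2BC12 (1.83 ± 0.15) and H2BC5 (1.80 ± 0.13) rose as well.

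H2BC14, the H2B member with the highest mean level, was 11.63, 11.60 and 11.39 without and 11.55, 11.26 and 10.99 with TRAIL. The groups overlapped, and the change of -0.28 ± 0.14 was not called; it was called lower after median centring, with a replicate block and without parental TRAIL array 1. The smallest changes in the class were H2BC13 (-0.18 ± 0.11) and H2BC9 (0.18 ± 0.11), neither called. H2BC1, the testis-associated H2B, was 3.68, 2.94 and 3.30 without and 3.09, 3.44 and 2.68 with TRAIL, which overlapped.

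Among the H3 genes, whose product forms the central tetramer with H4, H3C3 changed most. It was 6.20, 5.96 and 6.79 without and 10.12, 10.33 and 10.56 with TRAIL, a change of 4.03 ± 0.20 or 16.3-fold (limma adjusted p = 1.08e-10). H3C10 was 7.46, 7.15 and 7.26 without and 10.92, 10.70 and 9.96 with TRAIL, a change of 3.24 ± 0.20. The TRAIL arrays spread more widely than the untreated ones, but the lowest stood far above all of them. H3C1 changed by 1.37 ± 0.23 and H3C8 by 1.24 ± 0.10. H3C8 stayed below the median of all genes in every group, from a mean of 3.20 to 4.44 here. H3C2, the H3 member with the highest mean level, stood at 11.52, 11.33 and 11.31 without and 11.65, 11.74 and 11.64 with TRAIL. Its change of 0.29 ± 0.09 was called (limma adjusted p = 0.01396, with a range of 0.005072 to 0.9893 over the alternatives). The call was lost after median centring and without untreated parental array 2 or 3. H3C7 (-0.04 ± 0.15) changed least and was not called.

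Among the H4 genes, H4C8 and H4C9 changed most. H4C8 was 7.13, 6.69 and 6.81 without and 10.87, 10.75 and 10.66 with TRAIL, a change of 3.88 ± 0.17 or 14.8-fold (limma adjusted p = 3.588e-11). H4C9 was 3.63, 3.29 and 3.79 without and 7.45, 7.44 and 7.45 with TRAIL, a change of 3.88 ± 0.12 (limma adjusted p = 3.079e-13). The 3 TRAIL values of H4C9 were nearly equal. As for H2AC14, its untreated level was not shown to be above background, so its change may be a lower bound. H4C16 on chromosome 12 changed by 2.62 ± 0.18 and H4C1 by 2.22 ± 0.15.

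H4C3, the H4 member with the highest mean level, was 12.27, 11.98 and 12.24 without and 12.65, 12.71 and 12.76 with TRAIL. The groups did not overlap, and it rose by 0.54 ± 0.10 (limma adjusted p = 0.00029, up to 0.05739 over the alternatives). H4C7 (-0.10 ± 0.12) and H4C14 and H4C15 (0.21 ± 0.12 each) changed least. H4C14 and H4C15 held equal values on every array, so they are 1 measurement, although both are included in the counts of 51 members and 13 H4 members.

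**Figure D2:**
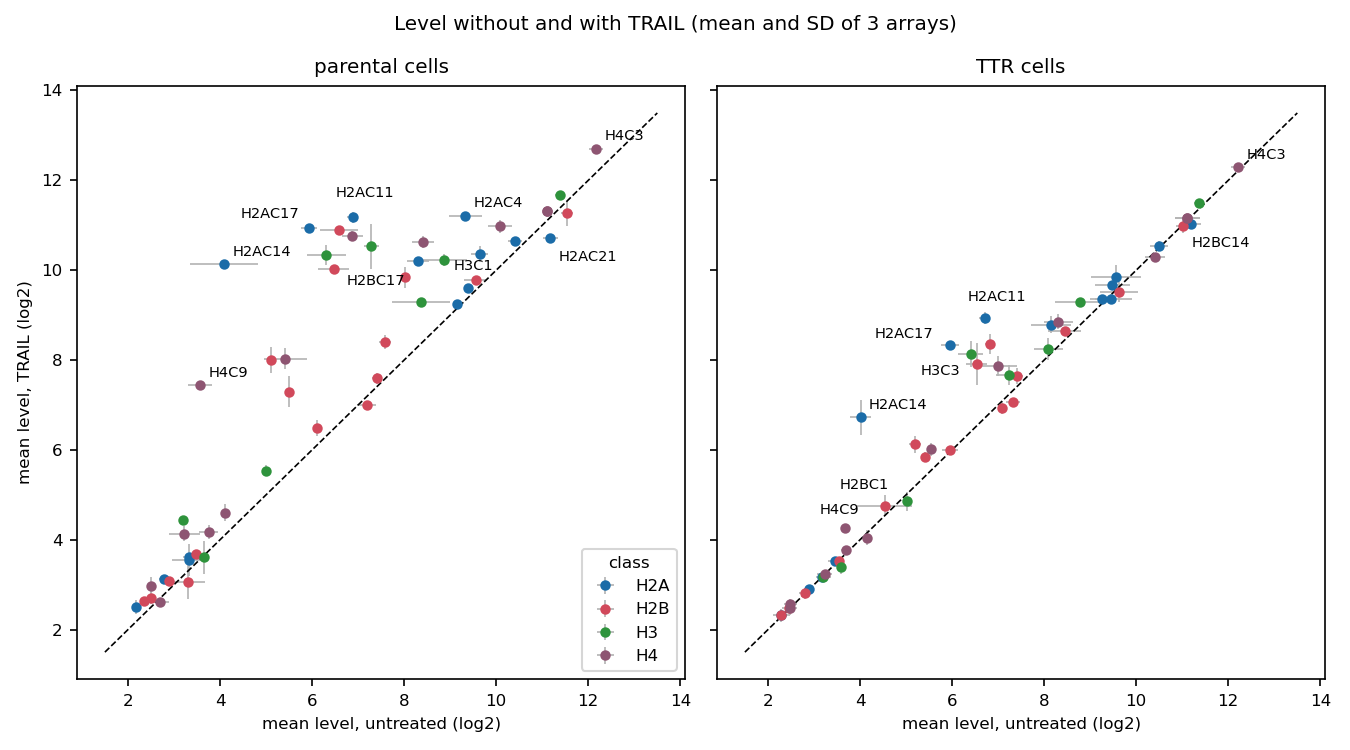
Each point is a member, with its mean untreated level on the horizontal and its mean TRAIL level on the vertical axis (log2), and bars give the SD of 3 arrays; the dashed line marks equal levels. In parental cells many members lie far above the line, while in TTR cells fewer members leave it and by less.

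The number of members with a level above 9 was 12 to 14 per untreated parental array and 26 on each parental TRAIL array. The upper quartile of the array values was 6.65 to 6.69 on untreated and 6.545 to 6.59 on TRAIL-treated parental arrays. The share of all genes above that level is not given here, and brightness differs between features, so the count is a description only.

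**Figure D3:**
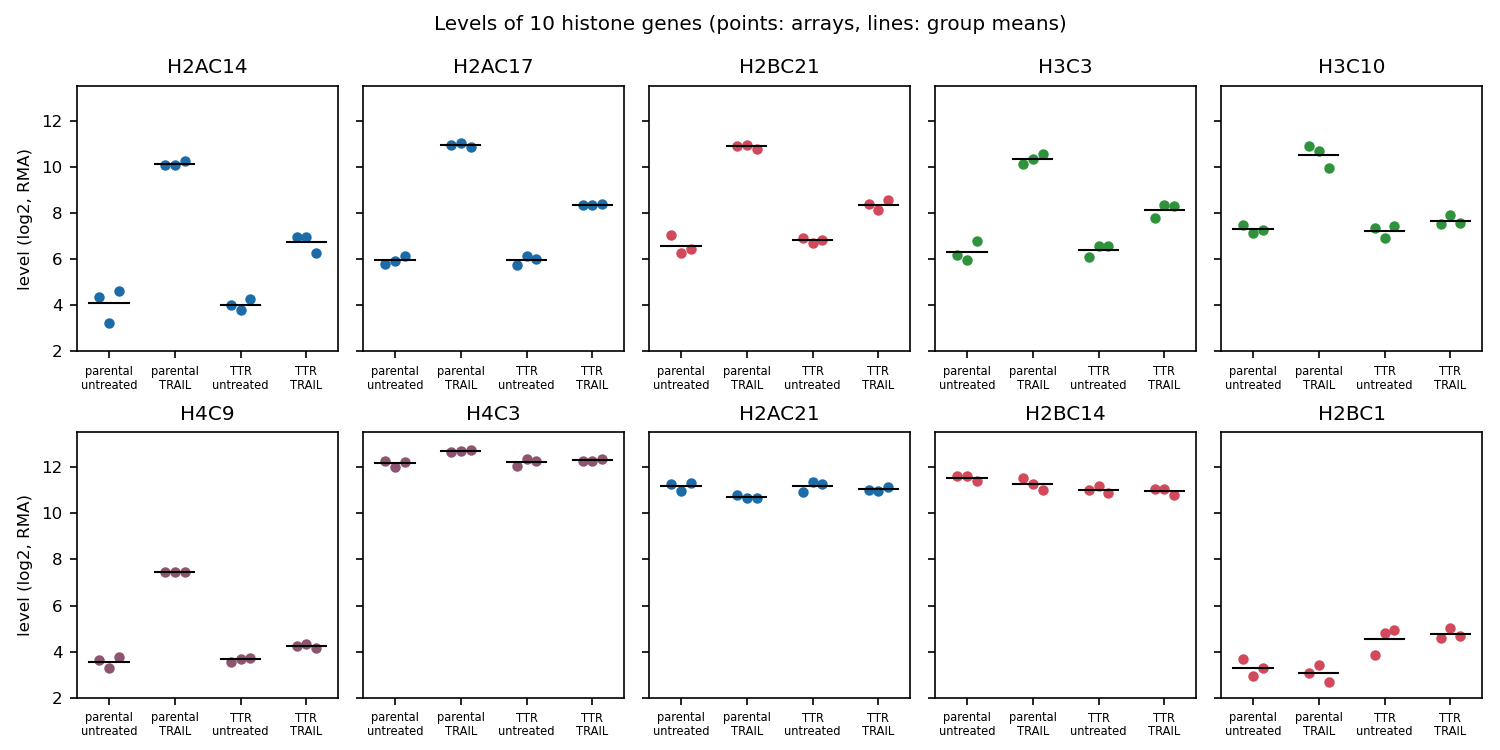
Levels (log2) of 10 members on each array, with a point per array, a line at each group mean and the 4 groups along the horizontal axis; colours follow histone class. H2AC14, H2AC17, H2BC21 and H3C3 are highest in parental cells with TRAIL and intermediate in TTR cells with TRAIL, while H2BC1 is higher in both TTR groups.

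The features of genes that share a start region did not always change together. The value of each gene is that of its own feature, and features for the same genes can read different changes, as described below. Whether the genes of a pair or only their features differ was not tested. Among the 46 members in the promoter table, 9 pairs of an H2A and an H2B member were encoded head to head, with 214 to 247 bases between their starts. Pairs that involve a member absent from it, such as H2AC12, could not be found. In H2AC17 with H2BC17 (4.996 and 3.57) and H2AC11 with H2BC11 (4.29 and 2.89) both genes rose at least 2-fold in parental cells. In 2 pairs only one gene did. H2AC14 changed by 6.04 and H2BC14, with its start 244 bases away, by -0.28. H2BC21 changed by 4.31 and H2AC20 by 0.26. In 5 pairs neither gene rose at least 2-fold. The difference between the 2 genes of a pair ranged from 0.04 to 6.32.

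**Figure D4:**
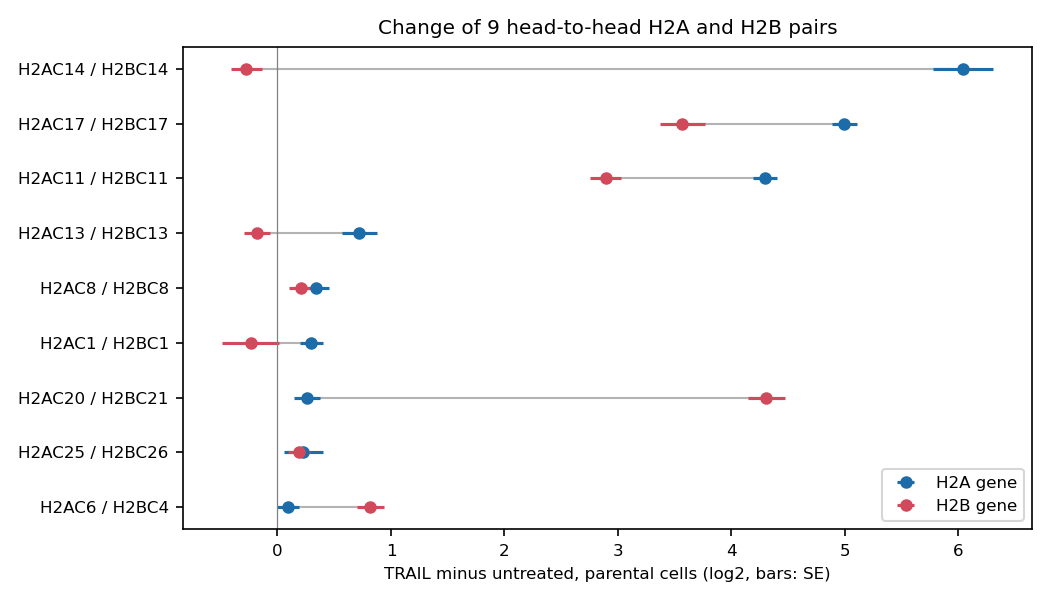
TRAIL change in parental cells (log2, horizontal axis) of both genes in each of 9 head-to-head pairs, with SE bars and a grey line joining the genes of a pair. The points of a pair lie close together in H2AC8 with H2BC8 and in H2AC25 with H2BC26, and far apart in H2AC14 with H2BC14 and in H2AC20 with H2BC21.

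Features that name several histone genes bear on how far a value belongs to 1 copy. The 12 RefSeq genes of these families without a feature of their own occur in such features only. 14 features named only clustered histone genes, and after dropping repeats with equal values 11 remained. In all 11 the parental TRAIL mean was above the untreated mean, by 0.20 to 5.42 with a median of 0.63 (values only, no test). The largest change was in the feature that names both H4C14 and H4C15. It was 6.89, 6.50 and 6.75 in untreated parental cells and 12.16, 12.13 and 12.09 with TRAIL. In TTR cells it went from 6.48, 6.59 and 6.70 to 10.31, 10.41 and 10.04. The features assigned to H4C14 and H4C15 alone stood at 11.10, 11.10 and 11.12 without and 11.39, 11.33 and 11.24 with TRAIL. Features for the same genes therefore read different changes. H2BC21 showed the same: its own feature changed by 4.31, one shared with H2BC18 and H2BP1 by 3.73, and one shared with H2BC19P and H2BC20P by 0.24. A feature shared by H2BC5, H2BC12, H2BC12L and H2BC17 changed by only 0.045 in parental and -0.042 in TTR cells. The own features of H2BC5, H2BC12 and H2BC17 changed by 1.80, 1.83 and 3.57 in parental cells.

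TRAIL in TTR cells was followed by higher levels of fewer members, and by less. 11 of 51 members rose, where 3.27% of all genes did, and 0 fell, where 2.55% of all genes did; at an unadjusted limma p under 0.05 the counts were 14 and 1, where 8.61% and 12% of all genes were higher and lower. 6 members rose at least 2-fold (0.673% of all genes). In 15 members the TRAIL arrays lay above the untreated ones without overlap (11.2% of all genes). The median change was 0.08 over the members and -0.01 over all genes. After median centring 9 members rose and 1, H2BC9, fell, where 2.43% of all genes rose and 10.6% fell.

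The genes with the smallest p were H2A genes. H2AC17 was 5.75, 6.12 and 6.00 in untreated TTR cells and 8.33, 8.33 and 8.37 with TRAIL, a change of 2.39 ± 0.11 or 5.23-fold (limma adjusted p = 5.39e-10). H2AC11 was 6.59, 6.72 and 6.82 without and 8.80, 9.08 and 8.92 with TRAIL, a change of 2.23 ± 0.11. H2AC14 was 4.001, 3.79 and 4.25 without and 6.95, 6.96 and 6.26 with TRAIL, a change of 2.71 ± 0.27 from an untreated level not shown to be above background. In all of these the groups stood apart. H2BC21 was 6.93, 6.72 and 6.83 without and 8.40, 8.13 and 8.55 with TRAIL, a change of 1.53 ± 0.16. H3C3 was 6.09, 6.55 and 6.58 without and 7.80, 8.32 and 8.28 with TRAIL, a change of 1.73 ± 0.20. H2BC17 rose by 1.37 ± 0.20.

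5 further members rose by less than 2-fold: H2BC11 (0.92 ± 0.14), H4C8 (0.87 ± 0.17), H2AC12 (0.63 ± 0.17), H4C9 (0.59 ± 0.12) and H4C1 (0.55 ± 0.15). The calls of H2AC12, H4C1 and H4C8 were lost under at least one alternative. H4C9 was 3.57, 3.69 and 3.74 without and 4.26, 4.36 and 4.15 with TRAIL. In this comparison the replicate numbers paired the samples. With the replicate number as a block and only the 2 groups in the fit, 13 members rose. H2BC5 (0.44, blocked limma adjusted p = 0.01557, range over alternatives 0.008127 to 0.2489) and H4C16 (0.48, blocked limma adjusted p = 0.00868, range 0.00868 to 0.3342) were then called. With all 12 arrays in the blocked fit 12 members rose. The shares of all genes that rose in these blocked fits are not given here. The added calls are therefore not shown to be particular to the members.

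The members that rose at least 2-fold in parental cells were set beside their values in TTR cells. Of these 18, 17 had a TTR change above 0 and 11 were called. The TTR change was between -2.19% and 51.9% of the parental change on the log2 scale, with a median of 28.4%. H2AC11 (51.9%), H2AC17 (47.8%), H2AC14 (44.8%) and H3C3 (42.9%) had the highest shares. H3C10 had 13.3%, H4C9 15.2% and H3C8, at -0.03 ± 0.10 in TTR cells, the lowest. The shares of H2AC14, H4C9 and H3C8 rest on untreated levels not shown to be above background. These members were selected by their parental change. Over all 51 members, changes in the lines, which share no arrays, had a Pearson r of 0.913 and a Spearman rho of 0.785. Over all genes these were 0.768 and 0.706. Both are correlations across genes, which are not independent replicates.

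**Figure D5:**
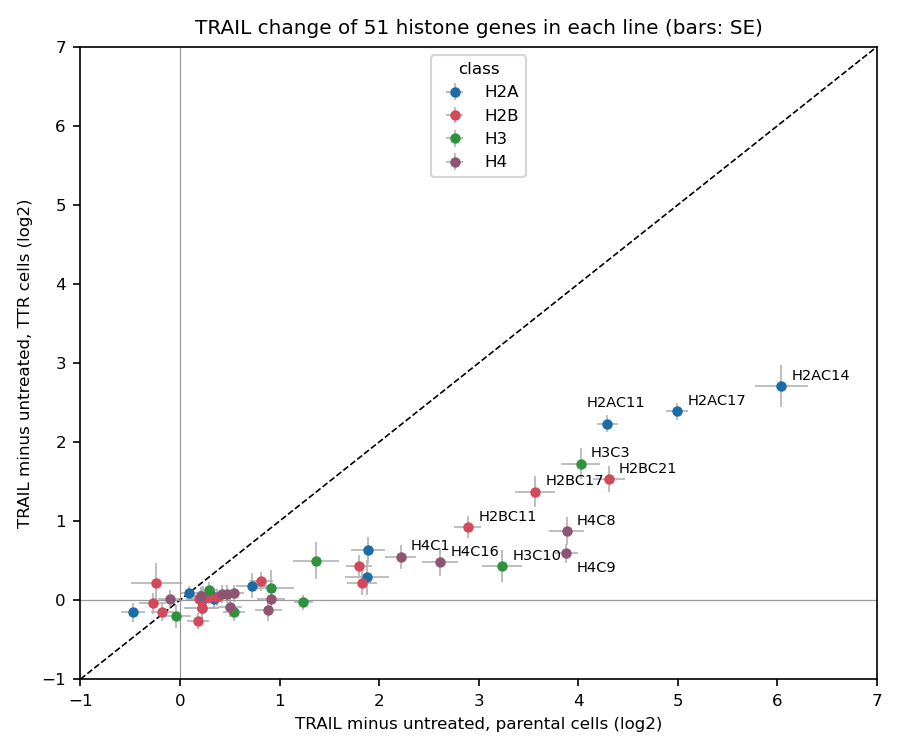
TRAIL change of each member in parental (horizontal) and TTR cells (vertical), both log2 with SE bars; the dashed line marks equal changes. All members above 1 on the horizontal axis lie below the dashed line, and H2AC14, H2AC17 and H2AC11 reach highest on the vertical axis.

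The difference between the TRAIL effects, TTR minus parental, was tested directly. It was called below 0 in 25 of 51 members, where 14.3% of all genes were, and called above 0 in 0 members, where 22.9% of all genes were. At an unadjusted limma p under 0.05 the counts were 31 and 0, where 19.5% and 25.6% of all genes were below and above 0. In 18 members the difference was at least 2-fold (2.4% of all genes). It was -3.29 ± 0.16 for H4C9 (limma adjusted p = 5.795e-09) and -2.61 ± 0.16 for H2AC17 (limma adjusted p = 4.776e-08). It was -3.33 ± 0.38 for H2AC14. For H4C9 and H2AC14 it rests on untreated levels not shown to be above background. 20 of the 25 calls held under all alternatives, and H2BC4, H2BC9, H3C1, H4C3 and H4C13 lost theirs under at least one. After median centring 20 members were called below 0 and 1, H2AC21, above 0, where 6.92% and 29.4% of all genes were.

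Without TRAIL few members were called between the lines. 1 of 51 members, H2BC1, was higher in TTR cells, where 3.64% of all genes were, and 1, H2BC14, was lower, where 3.47% of all genes were. Both shares are near those of all genes. H2BC1 was 3.86, 4.80 and 4.96 in untreated TTR cells against 3.68, 2.94 and 3.30 in untreated parental cells. The groups did not overlap, and the difference was 1.24 ± 0.25 (limma adjusted p = 0.006021). Both means, 3.31 and 4.54, were below the median of all genes. H2BC14 was 10.99, 11.20 and 10.87 against 11.63, 11.60 and 11.39. It was lower by a difference of -0.52 ± 0.14 (limma adjusted p = 0.02736, range 0.004421 to 0.1143 over alternatives), and the call was lost with all features in the fit and when untreated parental array 1 or 2 or untreated TTR array 1 or 3 was left out. For the members with the largest TRAIL changes the difference without TRAIL was -0.07 ± 0.27 for H2AC14, 0.02 ± 0.11 for H2AC17, 0.09 ± 0.20 for H3C3 and 0.10 ± 0.12 for H4C9, and none was called.

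With TRAIL, 33 of 51 members were lower in TTR than in parental cells, where 26.4% of all genes were, and 2 were higher, where 28% of all genes were. 18 were lower at least 2-fold (2.75% of all genes), and in 36 the groups did not overlap with TTR lower (30.5% of all genes). This comparison shares its arrays with those above. The smallest p belonged to H4C9 (-3.19 ± 0.12), H2AC17 (-2.59 ± 0.11), H2AC11 (-2.24 ± 0.11), H4C8 (-2.89 ± 0.17) and H2BC21 (-2.53 ± 0.16). H2BC1 was higher in TTR cells, at 4.58, 5.02 and 4.69 against 3.09, 3.44 and 2.68, a difference of 1.69 ± 0.25. H2AC21 was higher by 0.33 ± 0.12, a call that was lost after quantile normalization and when parental TRAIL array 2 or 3 or TTR TRAIL array 1 or 3 was left out. After median centring 26 members were lower and 3 higher, where 13% and 37.1% of all genes were. After quantile normalization 28 were lower and 1 higher, where 19.5% and 27.8% of all genes were.

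The linker histone genes, whose products bind the DNA between nucleosomes, were added after their values were seen. With TRAIL in parental cells 3 of 6 rose: H1-1 (1.11 ± 0.13), H1-2 (0.73 ± 0.11) and H1-5 (0.56 ± 0.12). H1-4 fell by 0.23 ± 0.09, while H1-3 (-0.01 ± 0.10) and H1-6 (0.26 ± 0.27) were not called. After median centring 2 rose and 2 fell. In TTR cells 0 of 6 were called by limma, and 1 was higher at an unadjusted p under 0.05. Without TRAIL, H1-6, the testis-associated linker histone, was lower in TTR than in parental cells (-1.36 ± 0.27, limma adjusted p = 0.005131).

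Of the replication-independent histone genes, 9 of the 17 listed were measured. Genes of this kind often have introns and poly(A) tails and are made throughout the cell cycle, but this was not checked for the genes named below. Similar copies can share probes here too, so their changes may not be separate measurements. 6 rose and 2 fell with TRAIL in parental cells; on centred arrays 5 rose and 3 fell, and on quantile-normalized arrays 5 rose and 1 fell. H3-3B, which encodes the variant H3.3, rose by 1.79 ± 0.11, from 9.80 ± 0.02 to 11.59 ± 0.16 (SD, n = 3). H2AX, the variant phosphorylated at DNA breaks, rose by 1.70 ± 0.10, H2AJ by 2.25 ± 0.15 and H3-5 by 1.40 ± 0.11. H2AZ2 fell by 1.03 ± 0.11. In TTR cells 3 rose, H3-3B (0.65 ± 0.11), H2AJ (0.72 ± 0.15) and H3-5 (0.45 ± 0.11).

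Of 24 measured genes of histone pre-mRNA 3′ processing and decay, 3 rose and 13 fell with TRAIL in parental cells. On centred arrays 1 rose and 18 fell, and on quantile-normalized arrays 5 rose and 12 fell. CPSF3, the nuclease that cuts histone pre-mRNA, fell by 1.85 ± 0.10, its partner CPSF2 by 1.81 ± 0.10, CSTF1 by 1.53 ± 0.10 and ERI1, an exonuclease that acts on the stem-loop, by 1.61 ± 0.12. In TTR cells 1 fell, ERI1, by 0.44 ± 0.12, and 0 rose by limma; at an unadjusted p under 0.05, 3 were higher and 6 lower. SLBP fell by 0.43 ± 0.09 in parental cells; after quantile normalization the change was -0.16 and no longer called. In TTR cells its change was -0.29 ± 0.09, not called. Of 14 measured genes of histone gene transcription, 3 rose and 7 fell in parental cells, against 2 and 8 on centred arrays and 4 and 5 on quantile-normalized ones. CDK2 fell by 0.94 ± 0.10, CCNE2 by 1.22 ± 0.16, CCNE1 by 0.70 ± 0.11 and E2F3 by 1.01 ± 0.13. CDK2 and the cyclins E activate NPAT, the histone gene coactivator, whose own change was -0.37 ± 0.15 (limma adjusted p = 0.04101). In TTR cells 0 of the 14 were called by limma; at an unadjusted p under 0.05, 4 were higher and 4 lower.

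Of 20 genes of histone chaperones and assembly factors, 6 rose and 12 fell in parental cells, against 4 and 14 on centred and 6 and 10 on quantile-normalized arrays. ASF1A, which hands H3 and H4 to the assembly factors, fell by 1.97 ± 0.11. RBBP4 fell by 1.53 ± 0.11, NAP1L1 by 1.58 ± 0.12 and CHAF1B by 1.35 ± 0.11. In TTR cells RBBP4 fell by 0.44 ± 0.11, and NASP (0.50 ± 0.12), UBN1 (0.46 ± 0.12) and TONSL (0.37 ± 0.10) rose. These rises were not called after median centring, when 0 of the 20 rose and 4 fell, and after quantile normalization 1, NASP, was still called. Of 19 measured S-phase genes 2 rose and 14 fell in parental cells, against 2 and 17 on centred and 2 and 10 on quantile-normalized arrays. GINS2, PRIM1 and MCM6, all of the DNA replication machinery, fell by 1.88 ± 0.11, fell by 1.62 ± 0.10 and fell by 1.75 ± 0.12. RRM1, which makes deoxynucleotides, fell by 1.80 ± 0.13. In TTR cells 1 was called, GINS2, which fell by 0.54 ± 0.11. Most S-phase genes were thus lower on the arrays where most histone members were higher, and their part in the histone result was not tested. All these counts stand beside the 28.9% and 29.9% of all genes that rose and fell in parental cells. In TTR cells 3.27% of all genes rose and 2.55% fell. At an unadjusted limma p under 0.05, 8.61% were higher and 12% lower in TTR cells. Those shares are not matched for level. Over all genes the median parental change was 0.17 at untreated parental levels under 5, -0.32 from 5 to 9 and -0.94 over 9. Most listed genes stood at 5 or above, so their falls are not shown to be particular to these lists.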

How the data were processed

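Levels of RNA from 12 samples were read on one-colour Affymetrix arrays. The deposited values are log2 levels that the authors made with RMA in Affymetrix Power Tools, per the submitters' processing notes; versions, genome build and the step behind the unequal array medians are not given in these sources. No detection call was used, so low levels can be background. Of 33252 features, 19460 named 1 gene in the platform annotation, giving 18417 genes; 19429 matched RefSeq (GRCh38.p14). All 12 arrays were fitted with limma 3.58.1 in R 4.3.3 (lmFit, eBayes, one mean per group, 8 residual and 7.87 prior degrees of freedom; two-sided, Benjamini-Hochberg). The fit was tested on simulated data: for TRAIL in parental cells, 98% of simulated log2 changes of 1 and 52% of those of 0.5 were recovered among 18417 genes. Each size of change was given to 50 genes. In the real comparison 28.9% of all genes rose and 29.9% fell, so these recoveries do not measure its sensitivity.

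The alternatives were median centring, quantile normalization, the mean of a gene's features, leaving out the dimmest genes, array weights, a trended prior, all features, a replicate block, only the groups compared (with and without the block), the parental TRAIL arrays left out, and each array left out in turn. Same-numbered arrays deviated together (correlations 0.322, 0.146 and 0.395) between untreated and TRAIL-treated TTR cells. Between untreated and TRAIL-treated parental cells the correlations were weaker (0.107, 0.056 and 0.059) but each was above those of other numbers. Between the lines this did not hold for every number.

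Members and lists were chosen with earlier results of these data known. Named were, per class, the member with the highest mean level and those with the 3 largest and 2 smallest parental changes; H4C9 and H2AC17; the 5 members with the smallest p per direction in the other comparisons; and 4 genes per list. Other genes were named after their values were seen. SRRT, NELFE, RNU7-1, POU2F1 and another gene of the lists were not analysed here. Plots were made with matplotlib 3.10.9 (Python 3.11.15).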

Additional observations from a re-analysis of the deposited data

Results flagged for a closer look

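The TRAIL effect differed between the lines, by the interaction term of the limma fit, in 25 members, all with a lower effect in TTR than in parental cells. The differences below are log2 values, TTR minus parental, each with an adjusted p under 0.05 over all genes. 5 H2A members had a difference: H2AC14 -3.33, H2AC17 -2.61, H2AC11 -2.06, H2AC4 -1.59 and H2AC12 -1.26. Of the H2B members 7 did: H2BC21 -2.77, H2BC17 -2.19, H2BC11 -1.97, H2BC12 -1.62, H2BC5 -1.36, H2BC4 -0.58 and H2BC9 -0.44. The 5 H3 members were H3C10 -2.81, H3C3 -2.30, H3C8 -1.27, H3C1 -0.87 and H3C11 -0.70. In the H4 class there were 8: H4C9 -3.29, H4C8 -3.01, H4C16 -2.14, H4C1 -1.67, H4C2 -1.02, H4C4 -0.90, H4C13 -0.60 and H4C3 -0.45. H2BC4, H2BC9, H3C1, H4C3 and H4C13 were not called under every alternative. The untreated means of H2AC14, H3C8, H3C11, H4C4, H4C9 and H4C13 were below the median of all genes in both lines. Those levels were not shown to be above background. The direction is the one that earlier results of these data had shown for H4C9 and H2AC17.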

How the results depend on the processing

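The 18 members at least 2-fold higher with TRAIL in parental cells, the 6 in TTR cells and the 18 with an interaction of at least 2-fold were called under all alternatives in which they were fitted. Leaving out 1 array gave 30 to 36 members higher with TRAIL in parental cells, 8 to 11 in TTR cells, 31 to 35 lower in TTR cells with TRAIL and 22 to 30 with a lower TRAIL effect. Small counts moved more. Members lower with TRAIL in parental cells were 1, but 4 after median centring, 2 with a replicate block and 1 to 2 without 1 array. In TTR cells 0 were lower, but 1 after median centring and 1 with array weights. Without TRAIL, 1 member was higher in TTR cells, but 3 with array weights, 2 with the replicate block and 1 to 2 without 1 array; 1 was lower, but 0 with all features and 0 to 1 without 1 array. With TRAIL, 2 were higher, but 1 after quantile normalization and 1 to 2 without 1 array. For the difference in TRAIL effect 0 were above 0, but 1 after centring. The parental class medians were 0.0474 for H2A, -0.0356 for H2B and 0.79 for H3 after centring. Without the dimmest genes, which leaves fewer members, they were 1.30 for H2A and 0.59 for H2B, and the H3 median was 0.83 to 1.20 without 1 array. After centring 11 uncalled parental changes of the 51 changed sign, and 3 after quantile normalization. Among the members named by the rule, uncalled changes that changed sign were H2AC15 (-0.0709), H2AC6 (-0.20), H2BC9 (-0.11) and H4C15 (-0.0798) after centring, H2BC13 (0.0242) after quantile normalization, and, without 1 array, H3C7 (-0.229 to 0.14), H4C7 (-0.179 to 0.0116) and, for the lines without TRAIL, H2AC17 (-0.0668 to 0.119) and H4C9 (-0.0425 to 0.207). The cause of these shifts was not tested. The replicate numbers pair samples most clearly for TRAIL in TTR cells, where the block changed the calls of H2BC5 and H4C16. With 3 arrays a group, small changes cannot be resolved reliably.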

Other observations

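Markers of other cell types were low with few exceptions. Of the blood markers, 4 of 5 were measured, and the summed level was 18.84 to 18.89 on untreated and 18.93 to 19.85 on TRAIL-treated parental arrays, and 18.36 to 18.57 and 18.17 to 19.25 on the TTR arrays. CD68, also a lysosomal gene of many cells, was the only one of them above 9. The 5 fibroblast and endothelial markers had group means between 2.23 and 5.90. No count of the members rests on these genes, and their part in the results was not tested.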
